A study of Homo sapiens with 6 samples.

Results

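The genes described here are 38 components, feedback regulators and target genes of the transcription factor NF-kB, with inflammatory cytokines and chemokines, taken from a list of 42 by the gene symbol of their probe set. Each of the 38 had 1 probe set among the 16965 on the array, and BCL3, BIRC3, SOD2 and CSF2 were not analysed here. The cells were MDA-MB-231, an established line of triple-negative breast cancer, profiled on 6 arrays. The groups were cells with hairpin shS100A10_1 and cells with hairpin shS100A10_5, both against S100A10, and cells with the control hairpin shNCT, with 2 arrays each. All cells carried a lentiviral hairpin and grew in 10% serum under the same puromycin selection (2.5 µg/ml). Since no label says that arrays of 1 group are separate cultures, the spread behind each p-value may be technical only.

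NF-kB is a dimer of Rel-family subunits. IkB proteins hold it in the cytoplasm until the IkB kinase marks them for degradation, after signals from receptors of tumour necrosis factor, interleukin 1 or microbial products. The dimer then enters the nucleus and binds short kappaB sites near its target genes, among them its own inhibitors, chemokines, interleukins and adhesion molecules. MDA-MB-231 cells are known for constitutive NF-kB activity and for secretion of inflammatory cytokines.

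The bases just before the start of several members hold a kappaB-like site. The windows below are a selection of members with such a match, so they do not show how common it is among the genes discussed. RefSeq promoter sequences (assembly GRCh38.p14, 250 bases before to 50 after the start) matched 30 of the 38 members by symbol. RELB, NFKBIE, IER3, CCL2, CCL5, LIF, CSF1 and CSF3 had none. Each line gives 60 bases on the strand of the gene, 5′ to 3′, and capitals mark matches to the 10-base NF-kB consensus on either strand, or, for ICAM1 and CXCL8, to the looser GGAANNTCC on either strand.
CXCL1 (chr4:73869289-73869348, plus strand): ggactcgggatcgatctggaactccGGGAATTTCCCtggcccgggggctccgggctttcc
CXCL2 (chr4:74099239-74099298, minus strand): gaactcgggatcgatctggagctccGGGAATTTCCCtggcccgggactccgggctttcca
CXCL3 (chr4:74038734-74038793, minus strand): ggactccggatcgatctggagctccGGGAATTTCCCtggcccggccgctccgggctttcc
CXCL5 (chr4:73998734-73998793, minus strand): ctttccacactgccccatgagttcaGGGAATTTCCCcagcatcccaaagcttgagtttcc
CXCL6 (chr4:73836563-73836622, plus strand): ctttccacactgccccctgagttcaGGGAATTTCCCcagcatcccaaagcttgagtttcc
CXCL8 (chr4:73740452-73740511, plus strand): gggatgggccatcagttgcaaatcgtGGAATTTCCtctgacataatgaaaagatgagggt
ICAM1 (chr19:10270908-10270967, plus strand): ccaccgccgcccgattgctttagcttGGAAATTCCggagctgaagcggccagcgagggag
IL6 (chr7:22727102-22727161, plus strand): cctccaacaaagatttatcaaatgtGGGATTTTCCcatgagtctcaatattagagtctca
IL32 (chr16:3065279-3065338, plus strand): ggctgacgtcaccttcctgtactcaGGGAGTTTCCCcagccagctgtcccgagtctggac
CCL20 (chr2:227813738-227813797, plus strand): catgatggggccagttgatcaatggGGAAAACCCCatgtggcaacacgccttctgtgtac
NFKBIA (chr14:35404796-35404855, minus strand): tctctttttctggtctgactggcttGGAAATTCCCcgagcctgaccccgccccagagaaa
TNFAIP3 (chr6:137867173-137867232, plus strand): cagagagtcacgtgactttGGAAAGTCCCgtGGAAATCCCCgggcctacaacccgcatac

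The 10-base consensus was found in 13 of the 30 member promoters (43.3%) and in 11.3% of all 35116 promoters of the same length. GGAANNTCC, which can overlap it, was found in 15 of 30, against 4.57% of all. REL, NFKB1 and NFKBIZ held the consensus but are not printed, while IL1B, IL11, IL24, BIRC2 and G0S2 held neither pattern. A match describes letters only, and a promoter without one says nothing about the factor. The windows of CXCL1 and CXCL3, set on their sites, were identical at 56 of 60 bases, those of CXCL1 and CXCL2 at 49, and those of CXCL5 and CXCL6 at 59, while CXCL1 and CXCL5 shared 27. The first base of the site lay 79 bases before the start in CXCL1, 78 in CXCL2 and 79 in CXCL3. These windows lie before the genes and bear on none of the probes.

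S100A10 intensity was 1969 and 1545 with shS100A10_1, 13565 and 9460.5 with shS100A10_5, and 88860.2 and 92938 with shNCT, so both hairpins lowered their target and shS100A10_1 lowered it further. Median intensity of all probe sets lay between 232 and 238 on every array. Replicate 2 of shS100A10_5 stood farthest from the other arrays on the first principal component (41.1, against 18.7 for replicate 1 and -18.2 to -10.03 for the other 4), so the calls that involve shS100A10_5 are set below beside the fit without it. Of 10 markers of mesenchymal basal breast cancer cells listed for this check, 1 was under the lower quartile of all probe sets on every array. VIM, CD44 and AXL had mean log2 intensities of 16.50, 13.77 and 14.77 with shNCT. The median log2 intensity with shNCT was 13.70 over these 10 and 8.40 over 10 measured markers of luminal epithelium. It was 4.64 over 8 markers of fibroblasts and 5.85 over 6 of endothelial cells. Leukocyte markers, which could bring in several of these cytokines, summed to intensities of 8088 to 8488 with shS100A10_1, 5053 to 6601 with shS100A10_5 and 6909 to 7218 with shNCT over the 12 of 15 that were measured, most of it from CD68, and 3 of the 12 were under the lower quartile on every array. With shS100A10_1, 7 of the 12 had a positive change and 5 a negative one, and with shS100A10_5 8 and 4, among them CD68 at 0.24 and -0.36, CD14 at -0.42 and -0.13 and ITGAM at -0.01 and -0.44, none called. PTPRC, the pan-leukocyte gene for CD45, had a mean log2 intensity of 5.50, 5.47 and 5.22 in the 3 groups, under the median probe set (7.88). LYZ, the lysozyme gene, was the 1 leukocyte marker past the threshold, higher with both hairpins (log2 changes of 1.56 and 1.35; limma, adjusted p of 0.00869 and 0.00865), with intensities of 132 and 166 with shS100A10_1 and 129 and 127 with shS100A10_5, against 51.0 and 49.3 with shNCT. Their part in the results was not tested.

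Of the 38 members, 2 passed the threshold with shS100A10_5, both higher: ICAM1 and CSF1. That is 5.26% of the members, beside 3.18% of all probe sets called in the same comparison, 1.43% higher and 1.75% lower (limma, adjusted p under 0.05 over all 16965 probe sets). With shS100A10_1, 0 of 38 passed, beside 0.189% of all probe sets, and 12 members had an unadjusted p under 0.05, 9 higher and 3 lower. In the direct comparison of shS100A10_5 with shS100A10_1, 1 member passed, CXCL1, lower with shS100A10_5, or 2.63% of members beside 2.91% of all probe sets (1.43% higher and 1.48% lower). With so few members called, these shares cannot tell whether the members differ from the background or match it.

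At an unadjusted p under 0.05 by limma, the 12 members with shS100A10_1 were 31.6% of the 38, where 8.44% of all probe sets were under that limit (4.28% higher and 4.16% lower). With shS100A10_5 there were 10, 9 higher and 1 lower, or 26.3% beside 21.0% of all probe sets (10.7% higher and 10.3% lower). Between the hairpins there were 8, 6 higher and 2 lower with shS100A10_5, or 21.1% beside 19.9% (10.1% higher and 9.80% lower). The median log2 change of the members was 0.08 with shS100A10_1 and 0.11 with shS100A10_5, where the medians of all probe sets were 0.0056 and 0.02. In each of these comparisons 24 members had a positive change and 14 a negative one (63.2% positive, beside 51.0% and 53.3% of all probe sets). Both comparisons use the same 2 control arrays, so a value of those arrays enters both changes. The arrays of the 2 groups did not overlap for 14 members that were higher and 5 that were lower with shS100A10_1, or 19 of 38, beside 42.4% of all probe sets (21.9% higher and 20.5% lower). For shS100A10_5 they were 14 and 6 members (52.6%), beside 50.5% of all probe sets (26.7% and 23.8%). Between the hairpins they were 13 and 8 members (55.3%), beside 49.0% (25.6% and 23.4%).

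**Figure D1:**
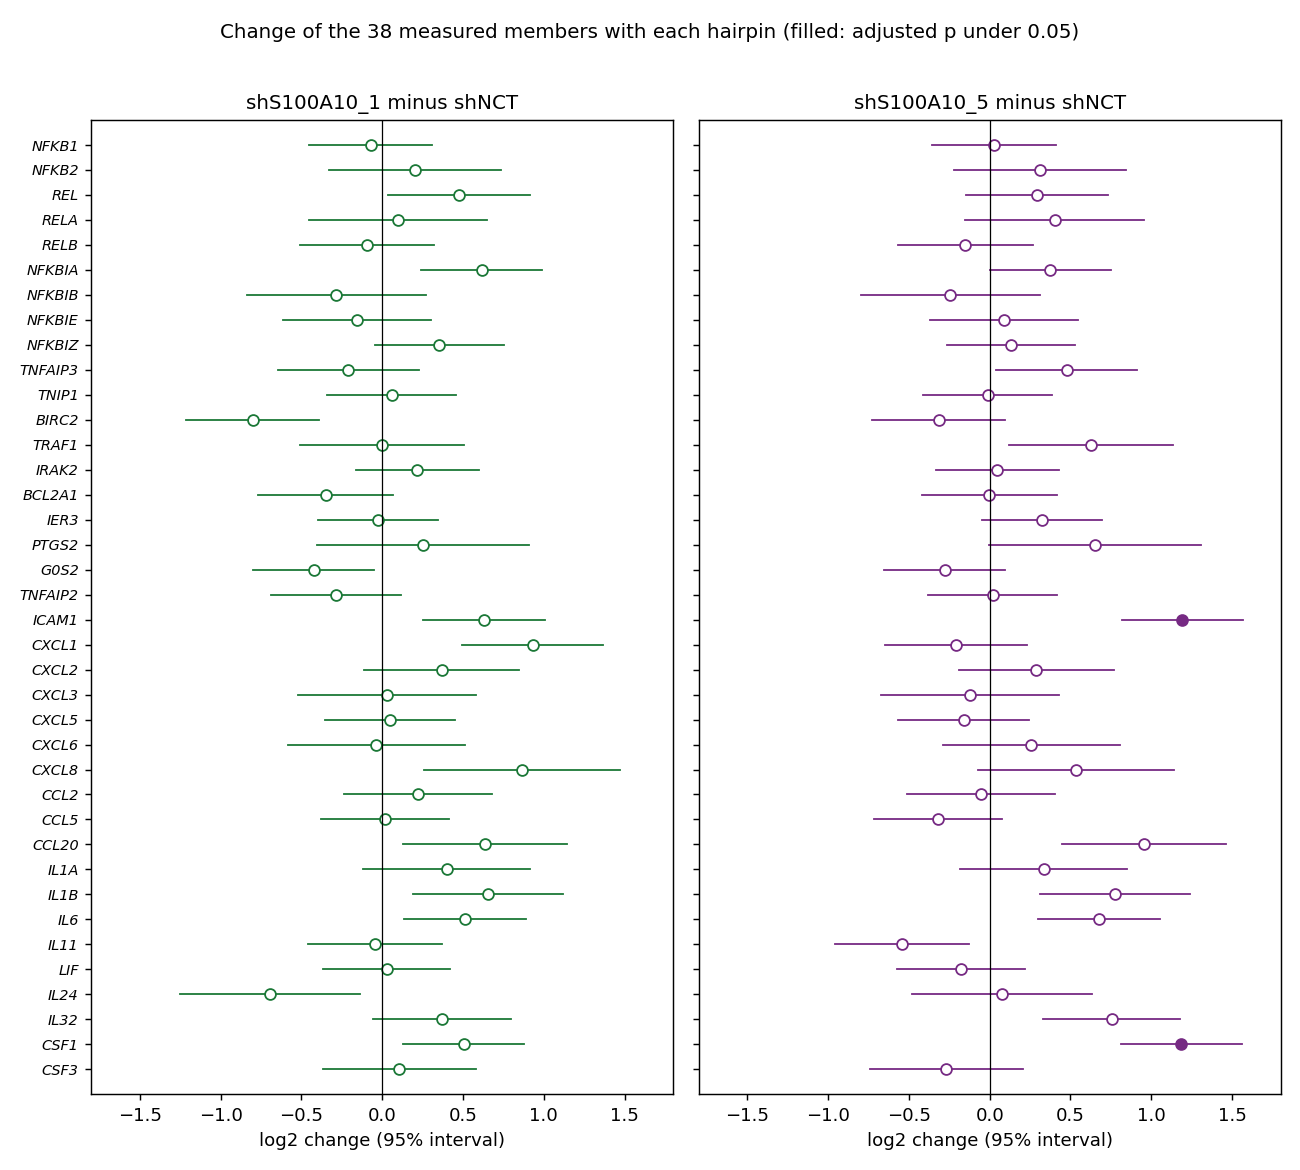
Log2 change of the 38 measured members (rows, ordered by role from the NF-kB subunits at the top to the colony-stimulating factors at the bottom) with shS100A10_1 (left) and shS100A10_5 (right), each minus shNCT. Points are limma estimates, lines their 95% intervals, and filled points passed the threshold, which only ICAM1 (1.19) and CSF1 (1.19) did, both with shS100A10_5.

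Neither hairpin gave a call among the 5 NF-kB subunits, whose median changes were 0.10 with shS100A10_1 and 0.29 with shS100A10_5. NFKB1, the p105 precursor of p50, had 1256 and 1404 with shS100A10_1, 1336 and 1511 with shS100A10_5, and 1402 and 1387 with shNCT. The 3 groups overlapped, and its log2 changes were -0.07 and 0.03 (95% intervals -0.45 to 0.31 and -0.35 to 0.41). RELA, the p65 subunit with the main activation domain, had 8347 and 7693 with shS100A10_1, 7409 and 13224 with shS100A10_5, and 7624 and 7358 with shNCT. The RELA signal of shS100A10_5 replicate 2 alone stood above the others, and the change of 0.40 with that hairpin was not past the threshold (limma, adjusted p = 0.395). REL, the lymphoid subunit c-Rel, had 358 and 434 with shS100A10_1, 338 and 358 with shS100A10_5, and 245 and 328 with shNCT. Every hairpin array of REL was above both control arrays, with log2 changes of 0.47 (SE 0.20) and 0.29 (SE 0.20) and limma adjusted p of 0.547 and 0.438. NFKB2, the p100 precursor of p52 in the non-canonical pathway, had changes of 0.20 and 0.31, and RELB, its dimer partner, of -0.09 and -0.15, all within overlapping arrays. RELB signal was low, between 38.3 and 52.0 on all arrays.

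NFKBIA had the largest log2 change of the 4 measured inhibitors with either hairpin, though no inhibitor passed the threshold. It encodes IkB-alpha, the inhibitor that NF-kB itself induces in a feedback loop. Its intensity was 4161 and 3953 with shS100A10_1, 3564 and 3309.8 with shS100A10_5, and 2768 and 2535 with shNCT. None of the 3 groups overlapped: both hairpins were above the control, and shS100A10_1 was above shS100A10_5. The log2 change was 0.61 (SE 0.17, 1.53-fold) with shS100A10_1 and 0.37 (SE 0.17, 1.30-fold) with shS100A10_5, with limma adjusted p of 0.304 and 0.237 over all probe sets. NFKBIZ, an atypical nuclear IkB that promotes a subset of targets such as IL6, had 2703 and 3046 with shS100A10_1, 2296 and 2638 with shS100A10_5, and 2407 and 2093 with shNCT, with changes of 0.35 and 0.13. NFKBIB and NFKBIE, the beta and epsilon inhibitors, had changes of -0.28 and -0.15 with shS100A10_1 and -0.24 and 0.09 with shS100A10_5, and their arrays overlapped with the control.

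The 5 measured adaptors and feedback regulators had a median difference of 0.49 between the hairpins, shS100A10_5 over shS100A10_1, and none was called. TNFAIP3 encodes A20, a ubiquitin-editing enzyme that ends NF-kB signalling and is itself a target. Its intensity was 369 and 387 with shS100A10_1, 616 and 603 with shS100A10_5, and 518 and 369.8 with shNCT. Both shS100A10_5 arrays were above all others, and the difference of shS100A10_5 over shS100A10_1 was 0.69 (SE 0.20, 95% interval 0.25 to 1.13; limma, adjusted p = 0.0921). TRAF1, an adaptor of tumour necrosis factor receptors, had 157 and 204 with shS100A10_1, 327 and 235 with shS100A10_5, and 206 and 157 with shNCT, with a difference of 0.63 between the hairpins (adjusted p = 0.167 by limma). BIRC2, the ubiquitin ligase cIAP1, which keeps the non-canonical pathway off, had 2423 and 2619 with shS100A10_1, 3724 and 3344 with shS100A10_5, and 3899 and 4949 with shNCT. Its 3 groups did not overlap, shS100A10_1 was lowest, and the log2 changes were -0.80 (SE 0.19) and -0.32 (SE 0.19), with limma adjusted p of 0.181 and 0.366. TNIP1, a partner of A20, had changes of 0.06 and -0.01, and IRAK2, a kinase downstream of interleukin 1 and Toll-like receptors, of 0.22 and 0.05.

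ICAM1, the adhesion molecule that binds leukocyte integrins, rose with shS100A10_5. Its intensity was 1329 and 1388 with shS100A10_1, 1894 and 2125 with shS100A10_5, and 905 and 851 with shNCT. The 3 groups did not overlap, with shS100A10_5 highest and the control lowest. The log2 level was 10.97 ± 0.12 with shS100A10_5 and 9.78 ± 0.06 with shNCT (SD, n = 2 each), a change of 1.19 (SE 0.17, 2.28-fold; limma, adjusted p = 0.00968). With shS100A10_1 the change was 0.63 (SE 0.17; limma, adjusted p = 0.297), and the difference between the hairpins was 0.56 (95% interval 0.19 to 0.94; limma, adjusted p = 0.106). Its GGAANNTCC match began 186 bases before the start.

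The other 5 survival, adhesion and enzyme genes showed no call. With ICAM1 they made 6 genes, all with a positive difference of shS100A10_5 over shS100A10_1, from 0.14 to 0.56. Of all probe sets, 52.0% were positive in that comparison, and of the 38 members 21 were positive and 17 negative (55.3% positive). Of the 6 CXC chemokines, 1 was positive and 5 were negative. The PTGS2 difference was -0.06 without shS100A10_5 replicate 2. IER3, an immediate early regulator of survival, was among the brightest probe sets on the array, with 75931 and 78742 for shS100A10_1, 93365 and 103962 for shS100A10_5, and 78481 and 78704 for shNCT. The shS100A10_5 arrays were the highest, at a change of 0.33 (limma, adjusted p = 0.298). G0S2, an inhibitor of lipolysis, had 21573 and 23470.2 with shS100A10_1, 24242 and 25513 with shS100A10_5, and 29029.7 and 31377 with shNCT. All 4 hairpin arrays of G0S2 were below the control, at -0.42 with shS100A10_1 (SE 0.17; limma, adjusted p = 0.527) and -0.28 with shS100A10_5 (SE 0.17; adjusted p = 0.381). PTGS2, the inducible cyclooxygenase, had 189 and 283 with shS100A10_1, 221 and 421 with shS100A10_5, and 208 and 182 with shNCT. Its change of 0.65 with shS100A10_5 (SE 0.30) rested mostly on replicate 2. TNFAIP2 had changes of -0.28 and 0.02. BCL2A1, an anti-apoptotic relative of BCL2, had signals of 12.0 to 17.9 on all arrays, under the lower quartile of all probe sets (log2 4.98).

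**Figure D2:**
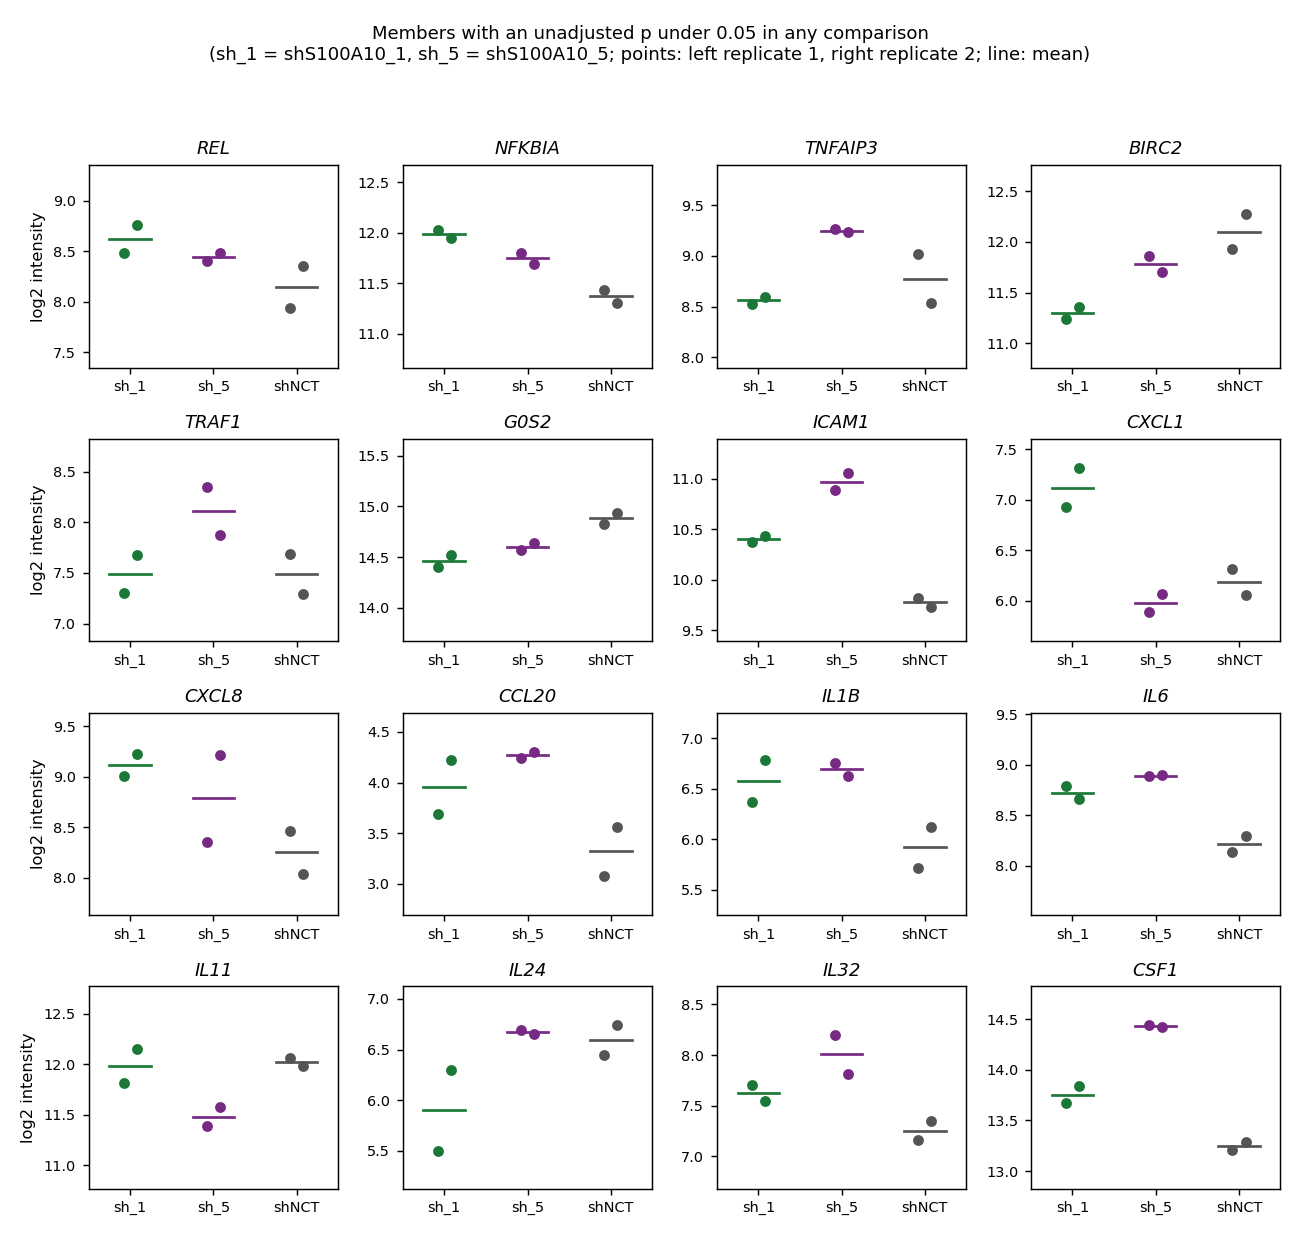
Log2 intensity on each array of the 16 members with an unadjusted p under 0.05 in any comparison, 1 panel a gene, each spanning 2 log2 units, with shS100A10_1, shS100A10_5 and shNCT from left to right. Points are single arrays and lines group means; ICAM1, CSF1, IL6 and CCL20 are lowest with shNCT, while CXCL1 is highest with shS100A10_1.

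Of the chemokines that attract neutrophils, CXCL1 separated the hairpins. Its intensity was 122 and 159 with shS100A10_1, 59.4 and 67.2 with shS100A10_5, and 79.8 and 66.8 with shNCT. Both shS100A10_1 arrays were above the other 4, and the shS100A10_5 and shNCT arrays overlapped. CXCL1 was lower with shS100A10_5, and its log2 difference from shS100A10_1 was -1.14 (SE 0.20, 95% interval -1.58 to -0.70; limma, adjusted p = 0.0181). Against shNCT its changes were 0.93 (SE 0.20; limma, adjusted p = 0.129) with shS100A10_1 and -0.21 (adjusted p = 0.594) with shS100A10_5.

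The nearest paralogs did not show that pattern in their point values. CXCL2 had 162 and 154 with shS100A10_1, 126 and 177 with shS100A10_5, and 141 and 106 with shNCT. Its difference between the hairpins was -0.08 (95% interval -0.56 to 0.40), and that of CXCL3 was -0.15 (-0.70 to 0.40). The intervals of both lay apart from the value of CXCL1, but the difference between the genes was not tested. CXCL5 and CXCL6, from the same cluster on chromosome 4, were dim, at most 54.4 and 28.0 on any array, with changes between -0.16 and 0.26. CXCL8, or interleukin 8, had 515 and 599 with shS100A10_1, 327 and 595 with shS100A10_5, and 354 and 262 with shNCT. Both shS100A10_1 arrays were above the control, the shS100A10_5 arrays spanned both, and the changes were 0.87 (SE 0.27; limma, adjusted p = 0.369) and 0.53 (adjusted p = 0.298).

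CCL20, which attracts cells with the receptor CCR6, had 12.9 and 18.6 with shS100A10_1, 18.9 and 19.7 with shS100A10_5, and 8.43 and 11.8 with shNCT. All hairpin arrays were above the control, with changes of 0.63 (SE 0.23) and 0.95 (SE 0.23) and limma adjusted p of 0.448 and 0.0532. This probe set was under the lower quartile on every array, and with no detection calls it cannot be said whether it was above background. CCL2 and CCL5, which attract monocytes and T cells, were also dim, at 14.2 to 21.2 and 15.7 to 22.8. Their changes ran from -0.32 to 0.22, and neither passed.

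Every array with either hairpin was above both control arrays for IL1B and IL6, though neither gene passed the threshold. IL1B, the secreted interleukin 1 that itself activates NF-kB, had 82.6 and 110.0 with shS100A10_1, 108 and 98.8 with shS100A10_5, and 52.7 and 69.5 with shNCT. Its changes were 0.66 (SE 0.21) and 0.77 (SE 0.21), with limma adjusted p of 0.379 and 0.0738. IL6, which signals through gp130 to STAT3, had 444 and 404 with shS100A10_1, 474 and 476 with shS100A10_5, and 281 and 314 with shNCT, with changes of 0.51 (SE 0.17) and 0.68 (SE 0.17). The limma adjusted p of IL6 was 0.409 and 0.0605, and the difference between the hairpins was 0.17 (95% interval -0.21 to 0.54). IL1A, the cell-associated interleukin 1, ran from 18.8 to 34.2 over the 6 arrays, with changes of 0.40 and 0.33.

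The other 2 members of the IL6 family had no call. IL11, which also signals through gp130, had 3591 and 4547 with shS100A10_1, 2682 and 3052 with shS100A10_5, and 4290.2 and 4051 with shNCT. Both shS100A10_5 arrays were the lowest, with a log2 change of -0.54 (SE 0.19; limma, adjusted p = 0.129), against -0.05 with shS100A10_1. LIF had changes of 0.03 and -0.18. IL24, of the interleukin 10 family, had 45.3 and 78.7 with shS100A10_1, 103 and 101 with shS100A10_5, and 87.1 and 107 with shNCT. Both shS100A10_1 arrays were below the rest, with a change of -0.70 (SE 0.25; limma, adjusted p = 0.448), although they differed from each other by more than any other pair of IL24 arrays in a group. IL32, an inducer of other cytokines, had 208 and 187 with shS100A10_1, 294 and 225 with shS100A10_5, and 143 and 163 with shNCT. Its groups did not overlap, at changes of 0.37 (SE 0.19) and 0.75 (SE 0.19; limma, adjusted p = 0.657 and 0.0629).

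CSF1, the growth factor of macrophages, rose with shS100A10_5. Its intensity was 13041 and 14633 with shS100A10_1, 22262 and 22057 with shS100A10_5, and 9464 and 10016 with shNCT. The order was the same as for ICAM1, with no overlap between the 3 groups. The log2 level was 14.44 ± 0.01 with shS100A10_5 and 13.25 ± 0.06 with shNCT (SD, n = 2 each), a change of 1.19 (SE 0.17, 2.28-fold; limma, adjusted p = 0.00968). With shS100A10_1 the change was 0.50 (SE 0.17; limma, adjusted p = 0.412), and the difference between the hairpins was 0.68 (95% interval 0.31 to 1.06; limma, adjusted p = 0.0606). CSF3, the granulocyte factor, was dim at 19.1 to 28.8, with changes of 0.11 and -0.27.

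**Figure D3:**
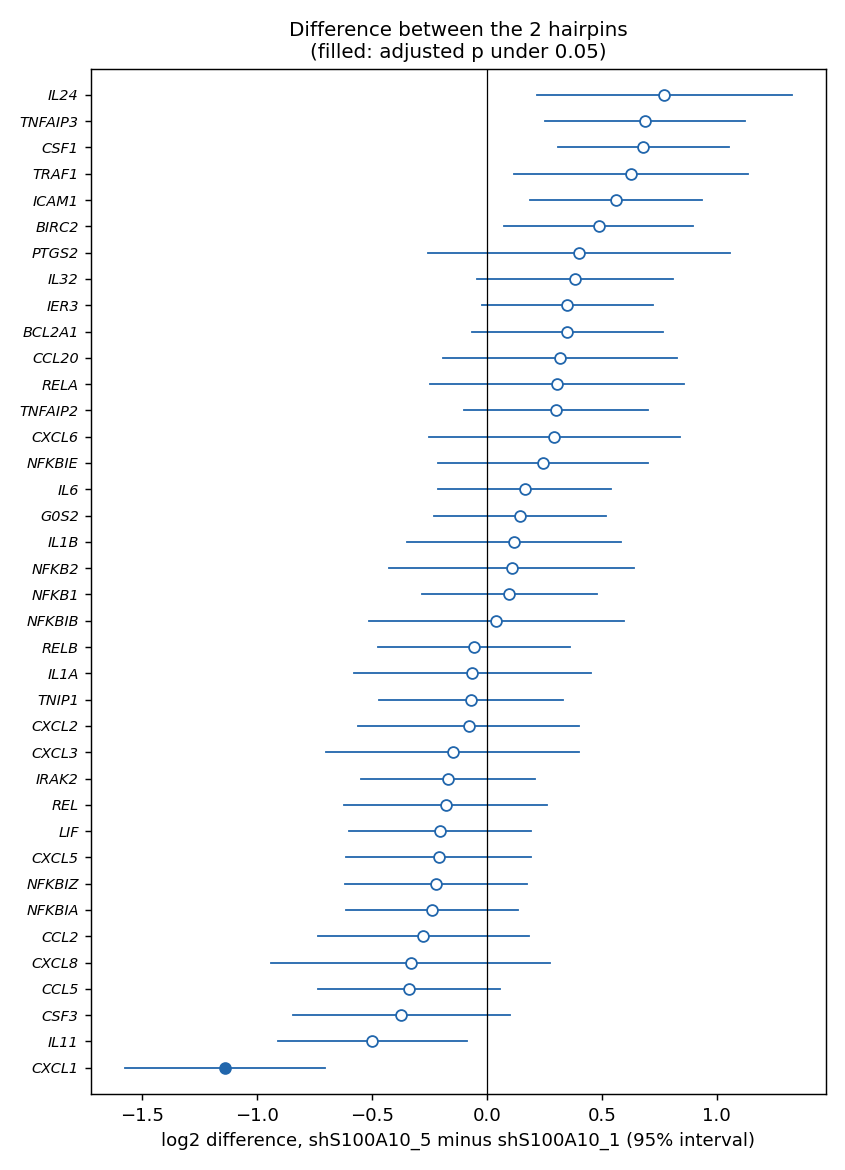
Log2 difference of shS100A10_5 minus shS100A10_1 for the 38 members, sorted by value, with 95% limma intervals. CXCL1 (-1.14) is at the bottom and is the 1 filled point past the threshold; IL24 (0.77), TNFAIP3 (0.69) and CSF1 (0.68) are at the top.

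The 3 calls were lost in most of the fits that left out an array of the groups compared, while the sizes of the changes held. Over these fits the change ran from 1.11 to 1.27 for ICAM1 and from 1.15 to 1.23 for CSF1. The CXCL1 difference ran from -1.33 to -0.95. A fit without an array leaves 1 in its group, so the adjusted p also reflects the lost array. Leaving out an array of the group not compared cannot move the change, so those fits say little about the calls. Without shS100A10_5 replicate 2, the array that stood apart, the change with shS100A10_5 was 1.11 for ICAM1 and 1.19 for CSF1, close to the full values, but the limma adjusted p was 0.0993 for both. At that setting 3 probe sets of the whole array were called. Without shNCT replicate 1 the adjusted p was 0.0651 for ICAM1 and 0.0788 for CSF1, and without shNCT replicate 2 it was 0.0929 and 0.0869 (limma). Without shS100A10_5 replicate 1 both kept the call (0.0316 and 0.0324, limma). For CXCL1 between the hairpins, the limma adjusted p was 0.110 without shS100A10_5 replicate 2, 0.0557 without shS100A10_5 replicate 1 and 0.0988 without shS100A10_1 replicate 2, with differences of -1.23, -1.05 and -0.95.

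**Figure D4:**
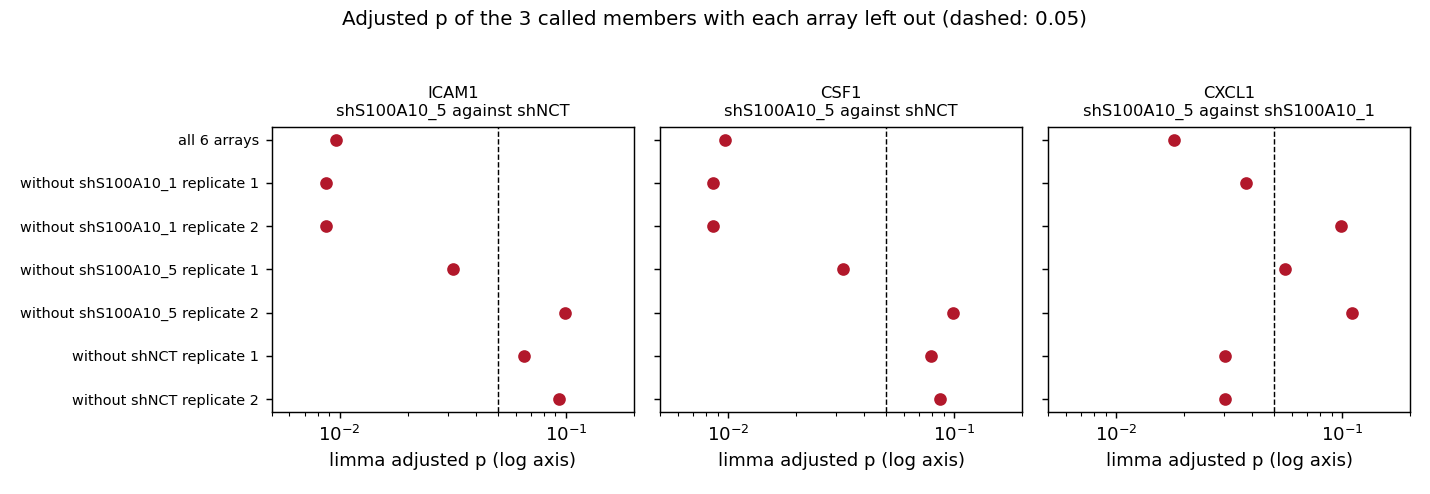
Limma adjusted p (log axis) of ICAM1 and CSF1 with shS100A10_5 against shNCT, and of CXCL1 with shS100A10_5 against shS100A10_1, with all 6 arrays and with each array left out. The dashed line is 0.05. For each gene 3 left-out fits lie right of it, all without an array of the groups compared, and without shS100A10_5 replicate 2 is farthest right. Leaving out an array of the group not compared does not move the change.

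Other genes of the pathway, from lists of upstream signalling, receptors and further targets, gave 87 measured genes that are no members. With shS100A10_5, 3 of them rose and 1 fell past the threshold, with shS100A10_1 1 rose, and between the hairpins 4 were higher and 3 lower with shS100A10_5. These are 4.60%, 1.15% and 8.05% of the 87, beside 3.18%, 0.189% and 2.91% of all probe sets in the same comparisons. Without shS100A10_5 replicate 2, 0 of the 87 passed with shS100A10_5 against shNCT and 0 between the hairpins, where 3 and 7 probe sets of the whole array were called (limma). Against shNCT with shS100A10_5, 0 also passed without either shNCT array, and 7 without shS100A10_5 replicate 1. Between the hairpins 3 passed without shS100A10_1 replicate 1 and 5 to 7 without shS100A10_1 replicate 2, shS100A10_5 replicate 1 or either shNCT array. TNFSF15 with shS100A10_1 passed whichever array was left out. The median over these 87 was 0.04 for shS100A10_1 and 0.18 for shS100A10_5.

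Upstream of NF-kB, 28 kinases and adaptors were measured. SHARPIN, a subunit of the linear ubiquitin ligase that activates the IkB kinase, had 1772 and 1799 with shS100A10_1, 789 and 659 with shS100A10_5, and 2142 and 2067 with shNCT. It fell with shS100A10_5 by 1.54 on the log2 scale (SE 0.17; limma, adjusted p = 0.00563) and was lower there than with shS100A10_1 (-1.31, adjusted p = 0.00747). CYLD, which removes such ubiquitin chains, had 502 and 579.7 with shS100A10_1, 1237 and 1585 with shS100A10_5, and 894 and 837 with shNCT. The hairpins lay on opposite sides of the control for CYLD, and their difference was 1.38 (SE 0.19; limma, adjusted p = 0.00824), with changes of -0.68 (adjusted p = 0.304) and 0.69 (0.0738). MAP3K8, a kinase bound by p105, rose by 1.01 with shS100A10_5 (SE 0.21; limma, adjusted p = 0.0364), against a change of 0.69 with shS100A10_1 that did not pass. COMMD1, which limits RELA, had changes of -0.28 and -0.65 without passing.

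Among 14 receptors that signal to NF-kB, TLR3, the sensor of double-stranded RNA, rose by 0.85 with shS100A10_5 (SE 0.20; limma, adjusted p = 0.0486), with 417 and 399 against 267 and 192 with shNCT. IL1R1, the interleukin 1 receptor, was higher with shS100A10_5 (102 and 145) than with shS100A10_1 (58.2 and 71.1), by 0.92 (SE 0.21; limma, adjusted p = 0.0496). Both calls lay just under the threshold, and neither was stable when 1 array was left out. Over those fits the TLR3 change with shS100A10_5 ran from 0.61 to 1.09, and the IL1R1 difference from 0.66 to 1.18. IL18R1 and TLR2 had changes of 0.77 and 0.09 with shS100A10_1 and of 0.49 and 0.65 with shS100A10_5, without a call.

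Of 18 receptors for the member cytokines, LIFR, the receptor of LIF, was the 1 with a call. It had 424 and 445 with shS100A10_1, 986 and 1167 with shS100A10_5, and 689 and 632 with shNCT. As for CYLD, the hairpins lay on opposite sides of the control, with a difference of 1.30 (SE 0.17, limma adjusted p = 0.00783). Neither LIFR change against shNCT passed, at -0.60 with shS100A10_1 and 0.70 with shS100A10_5 (limma, adjusted p of 0.326 and 0.0598). IL6ST, the shared chain gp130, had changes of -0.12 and 0.36, IL20RB of 0.32 and 0.53, and the decoy receptor IL1R2 of -0.54 and -0.01, none with a call.

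Of 27 further targets, TNFSF15, a ligand of the tumour necrosis factor superfamily, rose with both hairpins and was lower with shS100A10_5 than with shS100A10_1 (-1.52, SE 0.17; limma, adjusted p = 0.00462). PLAU, the urokinase gene, had 19559 and 18411 with shS100A10_1, 9132 and 8337 with shS100A10_5, and 12531 and 12738 with shNCT. The hairpins differed by -1.12 (SE 0.17, limma adjusted p = 0.0113) on opposite sides of the control. Neither PLAU change against shNCT passed, at 0.59 with shS100A10_1 and -0.53 with shS100A10_5 (limma, adjusted p of 0.318 and 0.106). SQSTM1, the p62 scaffold, differed the other way, by 0.90 (SE 0.17, limma adjusted p = 0.0244). Its changes against shNCT did not pass, at -0.31 with shS100A10_1 and 0.58 with shS100A10_5. CXCL11, an interferon-induced chemokine, had a change of 1.04 with shS100A10_1 (limma, adjusted p = 0.190) and of 0.20 with shS100A10_5.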

How the data were processed

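The authors deposited linear normalized intensities, 1 per probe set in each sample, made with Transcriptome Analysis Console per the submitters' processing notes; the sources used here give no version, background correction or normalization, and no detection calls or batches were given. Log2 intensities were fitted here with limma 3.58.1 in R 4.3.3 (lmFit, eBayes; 1 mean per group, all 6 arrays, no pseudocount, no filter), with two-sided contrasts of each hairpin against shNCT and of shS100A10_5 against shS100A10_1. Benjamini-Hochberg adjustment covered all 16965 probe sets (threshold 0.05), and the fit was tested on simulated data. The 38 members had 1 probe set each, named through the platform annotation. Values on every array are given for members with an unadjusted p under 0.05 in any comparison and for the 6 brightest with shNCT, with some others for context. From each pathway list the genes past the threshold are named, filled up to 4 by smallest p. Members and lists were chosen with earlier results of these data known, so the list has no test of its own.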

Additional observations from a re-analysis of the deposited data

Results flagged for a closer look

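The difference between the 2 hairpins, itself tested, passed the threshold for 8 genes of the pathway (limma, log2 difference of shS100A10_5 minus shS100A10_1). CYLD (1.38), LIFR (1.30), IL1R1 (0.92) and SQSTM1 (0.90) were higher with shS100A10_5. TNFSF15 (-1.52), SHARPIN (-1.31), CXCL1 (-1.14) and PLAU (-1.12) were lower. CXCL1 is the 1 gene among the 38 members (2.63%). The other 7 are among the 87 further pathway genes (8.05%), beside 2.91% of all probe sets called in that comparison. Without shS100A10_5 replicate 2 none of the 8 passed, with limma adjusted p of 0.0737 (TNFSF15) to 0.212 (IL1R1).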

How the results depend on the processing

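Of the members, 2 were called with shS100A10_5, 1 between the hairpins and 0 with shS100A10_1. Without dim probe sets these counts were 5, 2 and 0 of the 31 members left (16.1%, 6.45% and 0, beside 7.48%, 6.22% and 0.472% of the probe sets left). With a pseudocount of 16 they were 4, 3 and 0 (all probe sets: 6.16%, 5.20% and 0.342%), with an intensity trend 7, 3 and 1, BIRC2, lower (8.57%, 6.74% and 0.578%), and with a threshold of 0.1 they were 6, 3 and 0 (7.92%, 6.42% and 0.395%). Leaving out 1 array gave 0 to 3, 0 to 1 and 0 throughout. Counts over all probe sets ran from 16 to 98 (shS100A10_1, 32 in the fit as reported), 242 to 1454 (shS100A10_5, 539) and 287 to 1144 (between hairpins, 494) over the other settings, and from 8 to 16, 3 to 994 and 7 to 656 without 1 array. With the replicate block, members called were 3, 1 and 0 (7.89%, 2.63% and 0, beside 3.68%, 3.31% and 0.195% of all probe sets). The third of those with shS100A10_5 was CCL20. The replicate numbers come from the titles. Deviations of same-numbered arrays correlated at 0.19 between the hairpins, and at -0.02 and -0.03 between shNCT and shS100A10_1 or shS100A10_5. With 2 arrays per group, these values cannot tell whether same-numbered arrays share a culture or day. The median change of members stayed positive in every setting.

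Among the 16 members with an unadjusted p under 0.05 in any comparison, uncalled changes that turned sign were TRAF1 with shS100A10_1 (0.0070 with median centring, and -0.20 to 0.19 without 1 array). Without 1 array, so did TNFAIP3 with shS100A10_1 (-0.46 to 0.031), IL11 with shS100A10_1 (-0.22 to 0.13), IL24 with shS100A10_5 (-0.074 to 0.23) and, between the hairpins, IL1B (-0.089 to 0.32) and CXCL8 (-0.76 to 0.10). Of the other 22 members, 15 turned sign in the same way with shS100A10_1, 11 with shS100A10_5, RELA among them (-0.016 without replicate 2), and 12 between the hairpins. TLR3 with shS100A10_1 ran from -0.17 to 0.30. Leaving out arrays for the pathway genes was chosen after seeing the data. The cause was not tested. Dim probe sets such as CCL20, BCL2A1, CCL2, CCL5 and CSF3 have no known distance from background.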
